A study of Homo sapiens with 6 samples.

Results

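The mitochondrial protein import machinery was represented by 31 of the 17687 genes measured in U87MG, an established human glioblastoma line. Members were all genes whose symbols start with TOMM or TIMM, together with SAMM50, MTX1, MTX2, PMPCA, PMPCB, GRPEL1 and CHCHD4, and each was read by a single probe set. TOMM6 and TOMM40L were not analysed here. Total RNA was hybridised to 6 Affymetrix Clariom S arrays. The UNTREATED group held 3 arrays of cells given PBS, and the P-bi-TAT group held 3 arrays of cells given 30 µM P-bi-TAT, both for 24 h. All cells were of the same unmodified line, and low-serum medium preceded the exposure. P-bi-TAT is an antagonist of the thyroid hormone receptor on integrin αvβ3. The labels do not say whether the replicates were separate cultures, and the p-values therefore reflect variation among these arrays alone, which may be technical. RNA came from whole cultures, in which fewer cells of a kind and less RNA per cell cannot be told apart.

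Most mitochondrial proteins are made in the cytosol and imported. They enter through the TOM complex of the outer membrane and are then passed on by destination: beta-barrel proteins to the SAM complex, cysteine-rich proteins to the oxidative relay of the intermembrane space, carriers through the small TIM chaperones to TIM22, and proteins with a cleavable presequence to TIM23, its motor and the processing peptidase. Dividing cells depend on this route for the enzymes and respiratory chain subunits encoded in the nucleus.

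With all 6 arrays, no import gene differed at an adjusted p under 0.05, and genes of the route did not move as a block. Most TOM subunits and intermembrane space chaperones lay above every UNTREATED array in P-bi-TAT replicates 2 and 3, whereas TIMM23, TIMM23B and PMPCB lay below. Of all 31 members, 15 lay above and 3 below, against 19.1% and 17.9% of all genes. The 3 below are thus no larger a share than among all genes. In P-bi-TAT replicate 1 every import gene lay below the UNTREATED mean, as did 91.6% of all genes. The results therefore depend on how replicate 1 is treated, and they are given with and without it.

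Over the whole table, the values of P-bi-TAT replicate 1 were unlike those of any other array. Its median over gene probe sets was 3.52 on the log2 scale, against 4.73 and 4.76 in the other P-bi-TAT arrays and 4.85 in each UNTREATED array. It held 4527 distinct values, whereas the other 5 arrays held 23072 to 23438. P-bi-TAT replicates 2 and 3 correlated at 0.987 across genes, more closely than any pair of UNTREATED arrays (0.921 to 0.953), and genes are not independent replicates. The median of the negative controls ranged from 3.67 to 3.98 over UNTREATED arrays and from 3.20 to 3.27 over P-bi-TAT arrays. The 4 labelled hybridisation controls also differed between the groups, with medians of 12.04 to 12.53 in the UNTREATED and 10.34 to 10.79 in the P-bi-TAT arrays. The part of these array differences in the results below was not tested. Vimentin (VIM), a mesenchymal marker, had a mean of 15.25 in the UNTREATED arrays, and 5 of 6 measured glioma and mesenchymal markers lay above the negative controls. Of these, CD44 and TNC had means of 10.86 and 11.37. NES and FN1 had 4.47 and 5.19, under the highest mean among the markers of other cell types below. CDKN2A, which is deleted in this line, was not above the negative controls. Of the 3 astrocyte markers, GFAP was not above them, whereas S100B and AQP4 were, with means of 4.73 and 4.91. Of 14 measured markers of blood, endothelial, epithelial, neuronal and oligodendrocyte cells, 8 lay above the negative controls, with no mean over 5.31.

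Mean signals differed widely over the 31 genes. TIMM50, the TIM23 receptor for presequences, had the highest mean signal of the members, at 14.26 ± 0.40 (SD, n = 3) in UNTREATED cells. TOMM20L, a TOMM20-like gene, had a mean of 3.77 there and 2.97 in P-bi-TAT cells, below the mean negative control medians of 3.81 and 3.23, so that no difference is read from it. The other 30 genes were above the negative controls in both groups. Signals of different probe sets are not measures of relative abundance, since probes differ in affinity.

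**Figure D1:**
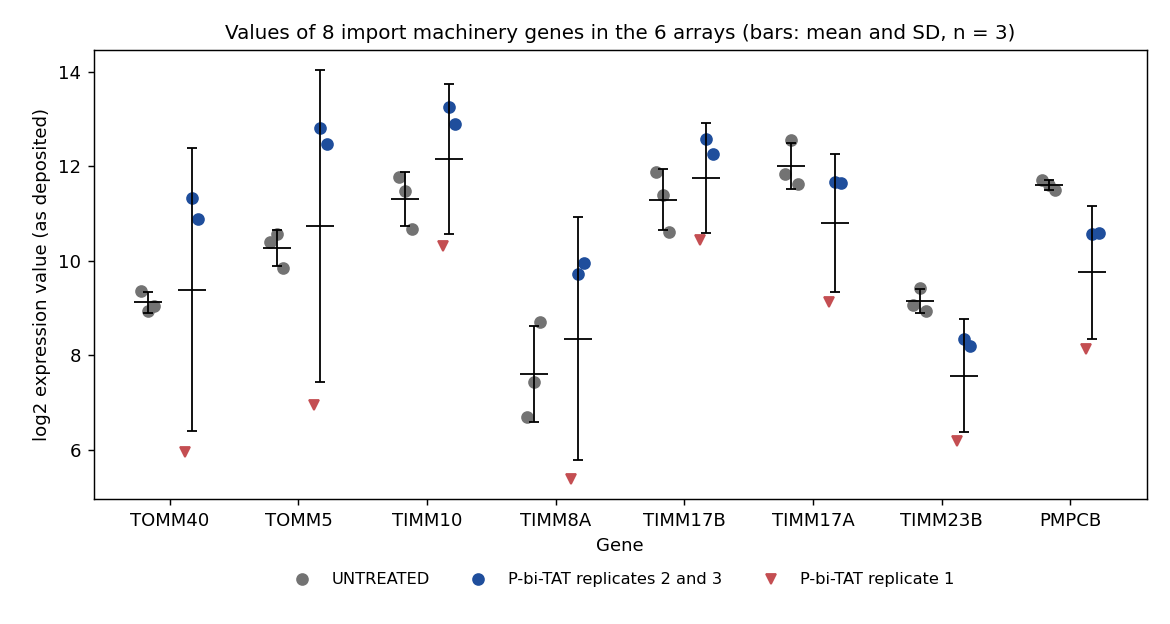
Log2 signal of TOMM40, TOMM5, TIMM10, TIMM8A, TIMM17B, TIMM17A, TIMM23B and PMPCB in the UNTREATED and P-bi-TAT arrays. These genes are examples, and the other import genes are not shown. Levels of different genes are not to be compared as amounts.

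In P-bi-TAT replicate 1, all 31 genes lay below the UNTREATED mean, as did 91.6% of all genes, and the size of the difference varied from -0.56 for TIMM50 to -4.18 for TIMMDC1 on the log2 scale. The median difference of the members was -2.05 in that array, against -1.23 over all genes. In replicate 2 the median was 0.61, with 23 genes above the UNTREATED mean, and in replicate 3 it was 0.34, with 21 above. The corresponding medians over all genes were -0.02 and -0.00. Replicates 2 and 3 both lay above all UNTREATED arrays for 15 of the 31 genes, a pattern shown by 19.1% of all genes, and both lay below for 3, a pattern shown by 17.9%. The other 13 genes did neither.

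**Figure D2:**
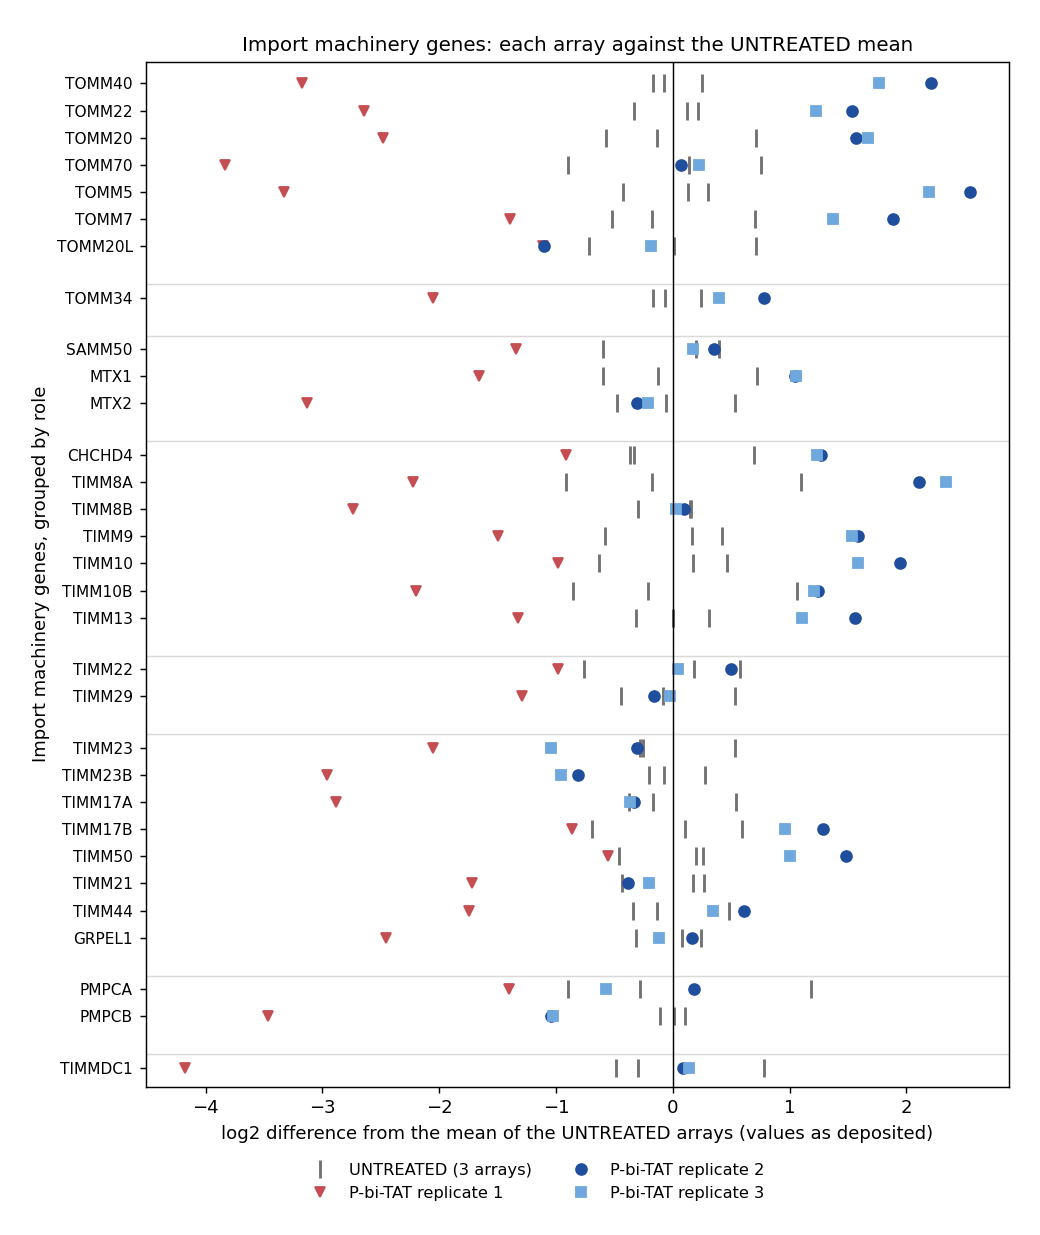
Log2 difference of each import gene from the mean of the 3 UNTREATED arrays, as deposited, for every array. All points of P-bi-TAT replicate 1 lie to the left of 0, while replicates 2 and 3 lie to the right for most TOM and intermembrane space genes and to the left for TIMM23, TIMM23B and PMPCB.

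The TOM complex, the common entry gate, had 7 measured genes, and 5 of them lay above every UNTREATED array in P-bi-TAT replicates 2 and 3. TOMM40, the channel, read 9.37, 8.95 and 9.05 in the UNTREATED arrays and 5.95, 11.34 and 10.89 in P-bi-TAT replicates 1, 2 and 3, respectively. The UNTREATED values lay within the range of the P-bi-TAT values, with replicate 1 far below and the other 2 above. TOMM5, a small subunit that supports the channel, read 10.40, 10.57 and 9.84, and then 6.94, 12.81 and 12.47. It showed the same arrangement, and with all 6 arrays its difference was 0.47 (SE 1.498, adjusted p = 0.956, limma). TOMM22, the receptor at the centre of the complex, read 10.66, 10.56 and 10.11 in UNTREATED cells and 7.80, 11.98 and 11.67 after P-bi-TAT. TOMM20, a receptor for presequences, read 7.37, 7.81 and 8.66, and then 5.47, 9.51 and 9.61. TOMM7, which takes part in the assembly of the complex, read 10.95, 9.72 and 10.07, and then 8.85, 12.13 and 11.61. All 3 genes had replicates 2 and 3 above the UNTREATED arrays and replicate 1 below them. TOMM70, the receptor that accepts carrier precursors from cytosolic chaperones, differed from this pattern, reading 9.65, 11.31 and 10.69 in UNTREATED cells and 6.72, 10.62 and 10.78 after P-bi-TAT. Its replicates 2 and 3 lay inside the UNTREATED range. TOMM34, a cytosolic cochaperone of Hsp70 and Hsp90, read 11.96, 11.56 and 11.66, and then 9.68, 12.51 and 12.13, and so followed TOMM40 rather than TOMM70.

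Genes of the intermembrane space were above the UNTREATED mean in 7 of 7 cases in P-bi-TAT replicates 2 and 3, and 6 of the 7 lay above every UNTREATED array in both. TIMM10, which with TIMM9 forms a chaperone ring for hydrophobic precursors, read 11.77, 11.48 and 10.67 in UNTREATED cells and 10.33, 13.25 and 12.90 after P-bi-TAT. With all arrays it differed by 0.85 (SE 0.82, unadjusted p = 0.338, adjusted p = 0.871, limma), within the spread between arrays. TIMM9 read 7.71, 6.96 and 7.97, and then 6.05, 9.13 and 9.08. Its gene overlaps TOMM20L in the RefSeq annotation, and whether the probe sets share signal was not tested. TIMM8A and TIMM13 form a second ring with a narrower set of clients. TIMM8A read 6.70, 7.43 and 8.71, and then 5.39, 9.72 and 9.95. TIMM13 read 8.63, 8.01 and 8.32, and then 6.99, 9.88 and 9.43. Both lay above every UNTREATED array in replicates 2 and 3 and below them in replicate 1. CHCHD4, the oxidoreductase that puts disulfide bonds into incoming proteins, read 7.32, 6.29 and 6.26, and then 5.71, 7.89 and 7.86. TIMM10B, which attaches the small TIM proteins to TIM22, read 7.65, 8.93 and 7.01, and then 5.66, 9.11 and 9.07. The exception was TIMM8B, a relative of TIMM8A, which read 7.77, 7.77 and 7.32, and then 4.88, 7.71 and 7.64, with replicates 2 and 3 inside the UNTREATED range.

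The promoters of the import genes were read as a description. RefSeq promoters (GRCh38.p14, from 250 bases before to 50 after the start) were matched for 28 of the 31 genes. The motif searched for NRF1, an activator of nuclear genes for mitochondria, was GCGCATGCG, that for GABPA was CCGGAAGT and that for YY1 was AAGATGGCG, each on both strands, and none of the 3 contains another. The NRF1 motif was in 3 of 28 promoters (CHCHD4, TOMM7 and TIMM9), against 2.10% of 27305 promoters and 2.82% of those of the 14250 measured genes matched. The GABPA motif was in 7 (TOMM20, TOMM70, MTX2, TIMM10, TIMM10B, TIMM29 and TIMMDC1), against 4.44% and 6.24%, and the YY1 motif in 2 (PMPCA and TIMM50), against 1.85% and 2.79%. Carriers of the GABPA motif included genes inside and above the UNTREATED range in replicates 2 and 3. A match describes the letters only. Stretches of 100 bases around the matches in 6 promoters are shown on the minus strand, 5′ to 3′, with matches in capitals. For CHCHD4 the capitals hold 2 overlapping matches, 10 letters in all. The stretches for the NRF1 motif are at chr7:22822920-22823019, chr14:58427607-58427706 and chr3:14124968-14125067. Those for the GABPA motif are at chr11:57530755-57530854, chr1:235128838-235128937 and chr3:100401140-100401239. TOMM70 is shown as a carrier whose levels did not follow those of TOMM20.
TOMM7: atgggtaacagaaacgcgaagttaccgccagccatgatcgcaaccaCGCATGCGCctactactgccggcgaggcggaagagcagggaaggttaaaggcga
TIMM9: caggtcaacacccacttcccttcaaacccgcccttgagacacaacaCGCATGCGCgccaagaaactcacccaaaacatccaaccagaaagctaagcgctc
CHCHD4: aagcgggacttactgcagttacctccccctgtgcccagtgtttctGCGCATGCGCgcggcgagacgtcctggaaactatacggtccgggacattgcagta
TIMM10: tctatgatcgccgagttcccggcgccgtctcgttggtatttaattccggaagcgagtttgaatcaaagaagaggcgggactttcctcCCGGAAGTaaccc
TOMM20: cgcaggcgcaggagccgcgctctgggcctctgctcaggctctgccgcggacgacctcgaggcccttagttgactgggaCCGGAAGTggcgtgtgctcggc
TOMM70: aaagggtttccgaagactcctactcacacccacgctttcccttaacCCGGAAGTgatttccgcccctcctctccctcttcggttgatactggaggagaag

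The sorting machinery of the outer membrane had 3 measured genes. SAMM50, which inserts beta-barrel proteins, read 10.74, 10.55 and 9.75 in UNTREATED cells and 9.002, 10.70 and 10.52 after P-bi-TAT. The metaxin MTX1, a partner of SAMM50, read 10.31, 9.46 and 8.99, and then 7.93, 10.63 and 10.65. MTX2, the other metaxin, read 9.27, 8.26 and 8.67, and then 5.60, 8.42 and 8.52. Only MTX1 of these 3 genes had replicates 2 and 3 above every UNTREATED array. At TIM22, the carrier translocase, the channel gene TIMM22 read 9.24, 8.85 and 7.90, and then 7.68, 9.16 and 8.70. TIMM29, a TIM22 subunit, read 5.23, 5.59 and 6.21, and then 4.39, 5.51 and 5.65, and its difference with all arrays was -0.49 (SE 0.52, unadjusted p = 0.374, adjusted p = 0.874, limma). For both genes the groups overlapped.

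Of 8 genes of TIM23 and its motor, 2 lay above every UNTREATED array in P-bi-TAT replicates 2 and 3 and 2 lay below. Over all genes these patterns were shown by 19.1% and 17.9%. TIMM23, the channel of the presequence translocase, read 13.09, 12.31 and 12.28 in UNTREATED cells and 10.51, 12.26 and 11.52 after P-bi-TAT. The groups did not overlap, though replicate 2 lay just under the lowest UNTREATED array, and the difference was -1.13 (SE 0.56, unadjusted p = 0.0846, adjusted p = 0.847, limma). TIMM23B, a near-identical copy of TIMM23, read 9.07, 9.43 and 8.95, and then 6.19, 8.34 and 8.20. Its difference was -1.58 (SE 0.65, unadjusted p = 0.0452, adjusted p = 0.847, limma). The probe sets of TIMM23 and TIMM23B may share signal, which makes the assignment of both values uncertain. TIMM50 ran the other way in replicates 2 and 3, reading 14.53, 14.46 and 13.80 in UNTREATED cells and 13.71, 15.75 and 15.27 after P-bi-TAT. Its difference over all arrays was 0.64 (SE 0.62, unadjusted p = 0.331, adjusted p = 0.871, limma). TIMM17A and TIMM17B are alternative partners of TIMM23. TIMM17A read 11.84, 12.55 and 11.64, and then 9.12, 11.67 and 11.64, while TIMM17B read 11.89, 11.40 and 10.60, and then 10.44, 12.59 and 12.26. Replicates 2 and 3 were thus above every UNTREATED array for TIMM17B but not for TIMM17A. TIMM21, which links TIM23 to the respiratory chain, read 10.79, 11.41 and 11.49, and then 9.52, 10.85 and 11.03. TIMM44, the anchor of the motor, read 5.57, 6.19 and 5.37, and then 3.97, 6.32 and 6.05, a difference of -0.26 (SE 0.69, unadjusted p = 0.717, adjusted p = 0.946, limma) whose sign turned to 0.48 without replicate 1. GRPEL1, the nucleotide exchange factor of the motor, read 12.04, 12.20 and 11.64, and then 9.505, 12.12 and 11.84.

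PMPCB, the catalytic subunit of the peptidase that removes presequences, had the lowest unadjusted p of the members in the fit of all 6 arrays. It read 11.71, 11.62 and 11.49 in UNTREATED cells and 8.14, 10.57 and 10.58 after P-bi-TAT. All 3 P-bi-TAT arrays were below all UNTREATED arrays, and the UNTREATED arrays lay within a narrow range. The difference was -1.84 (SE 0.71, 95% confidence interval -3.54 to -0.15, unadjusted p = 0.0369, adjusted p = 0.847, limma). Altogether 9 members overlap another protein-coding gene in the annotation, TIMM17B, MTX1 and TIMM13 among them. PMPCB overlaps DNAJC2 and PSMC2, and the part of that overlap was not tested. PMPCA, the other subunit, read 11.95, 10.49 and 9.87, and then 9.37, 10.96 and 10.20, and its groups overlapped. TIMMDC1, matched by its symbol, is an assembly factor of complex I and not a translocase subunit. It read 11.53, 12.80 and 11.72, and then 7.84, 12.11 and 12.15.

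In the comparison of all 6 arrays, limma called 0 of the 31 members at an adjusted p under 0.05, against 0.0% of all genes, and 2 at the same unadjusted limit. The test of the study's methods called 0 members, whether adjusted or not. Of all 17687 genes, it called 1 at an adjusted p under 0.05. It called 5.99% of all genes lower and 0.26% higher at 1.5-fold with an unadjusted p under 0.05. At these limits in limma, PMPCB and TIMM23B were lower, 2 of 31 against 4.98% of all genes, and 0 were higher, against 0.192%. The median difference was -0.26 for the members and -0.43 for all genes. The 3 genes whose groups did not overlap, PMPCB, TIMM23 and TIMM23B, each had p = 0.1 in a two-sided exact permutation test, the smallest p that 3 arrays against 3 allow, and 14.5% of all genes had all P-bi-TAT arrays below all UNTREATED arrays.

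Without P-bi-TAT replicate 1, again no import gene passed the adjusted threshold, and the smallest adjusted p was 0.136, for TOMM5. At 1.5-fold and an unadjusted p under 0.05, 12 genes were then higher, against 9.26% of all genes, and PMPCB and TIMM23B were lower, 2 genes against 5.31%. The 12 were TOMM40, TOMM22, TOMM20, TOMM5, TOMM7, CHCHD4, TIMM8A, TIMM9, TIMM10, TIMM13, TIMM17B and TIMM50. TOMM5 was higher by 2.37 on the log2 scale (SE 0.41), and TOMM40 by 1.99 (SE 0.39, adjusted p = 0.151, limma). TIMM8A was higher by 2.22 (SE 0.59, adjusted p = 0.199, limma). For PMPCB the difference narrowed to -1.03 (SE 0.36, adjusted p = 0.273, limma). The median difference of the members was 0.48, against -0.02 over all genes. This comparison rests on 2 P-bi-TAT arrays that are closer to each other than any UNTREATED arrays are.

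Differences between genes of the same array do not depend on a shift common to that array. A trend that changes with signal level can remain in them. TIMM17B minus TIMM17A was 0.06, -1.15 and -1.03 in UNTREATED cells and 1.31, 0.92 and 0.62 after P-bi-TAT. The groups were apart, replicate 1 included, by 1.66 on the log2 scale, with p = 0.1 in a two-sided exact permutation test and 0.3 after adjustment over the 3 paralog pairs tested. TIMM8A minus TIMM8B differed by 1.61 with overlapping groups (exact permutation p = 0.2, adjusted 0.3), and TIMM23 minus TIMM23B by 0.44 (exact permutation p = 0.5, adjusted 0.5). A further 5 pairs of functional partners are given without a test. MTX1 minus MTX2 was 1.04, 1.20 and 0.32 in UNTREATED cells and 2.33, 2.21 and 2.13 after P-bi-TAT. TOMM20 minus TOMM70 was -2.28, -3.50 and -2.03, and then -1.25, -1.11 and -1.16. In both pairs the 3 P-bi-TAT arrays lay close together and above all UNTREATED arrays. The share of other gene pairs that are apart in this way was not counted, and no result is read from the pattern. PMPCA minus PMPCB, TIMM10 minus TIMM9 and TIMM13 minus TIMM8A had overlapping groups.

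**Figure D3:**
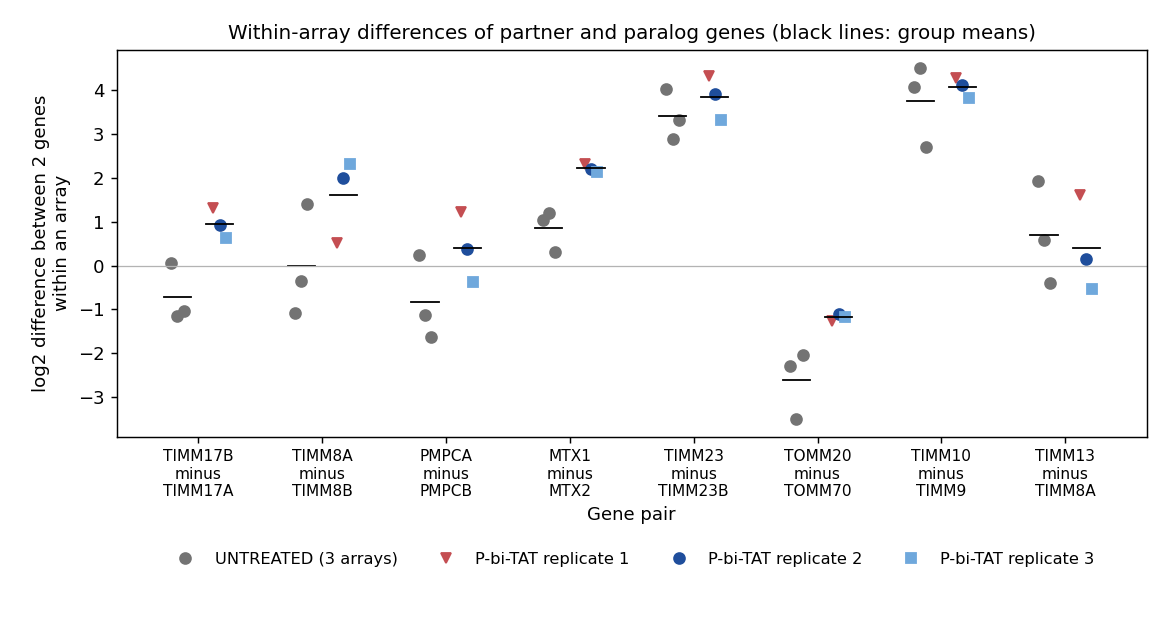
Log2 difference between partner genes within each array, by group. TIMM17B minus TIMM17A, MTX1 minus MTX2 and TOMM20 minus TOMM70 are higher in all 3 P-bi-TAT arrays, replicate 1 included, than in any UNTREATED array. How many other gene pairs share this pattern was not counted.

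After the intensity-dependent trend of each array was removed by cyclic loess, replicate 1 no longer lay below for every gene. Its member median was then 0.20, against 0.31 and 0.08 in replicates 2 and 3. All 3 P-bi-TAT arrays were above the UNTREATED mean for 13 genes and below it for 9. The share of all genes with these patterns was not counted, and no result is read from them. The 3 P-bi-TAT arrays lay above every UNTREATED array for TOMM7, CHCHD4, TIMM9, TIMM10, TIMM13 and TIMM50, 6 genes against 7.28% of all genes. They lay below for MTX2, TIMM23B, TIMM17A and PMPCB, 4 genes against 6.48%. TIMM10 then read 11.53, 11.20 and 10.44 in UNTREATED cells and 12.20, 12.52 and 12.25 after P-bi-TAT. PMPCB read 11.44, 11.26 and 11.17, and then 10.19, 9.80 and 9.87, a difference of -1.33 (unadjusted p = 0.00343, adjusted p = 0.537, limma). The TOM genes TOMM40, TOMM5 and TOMM22 still differed among the P-bi-TAT arrays, with replicate 1 at -0.59, -0.92 and -0.23 from the UNTREATED mean.

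**Figure D4:**
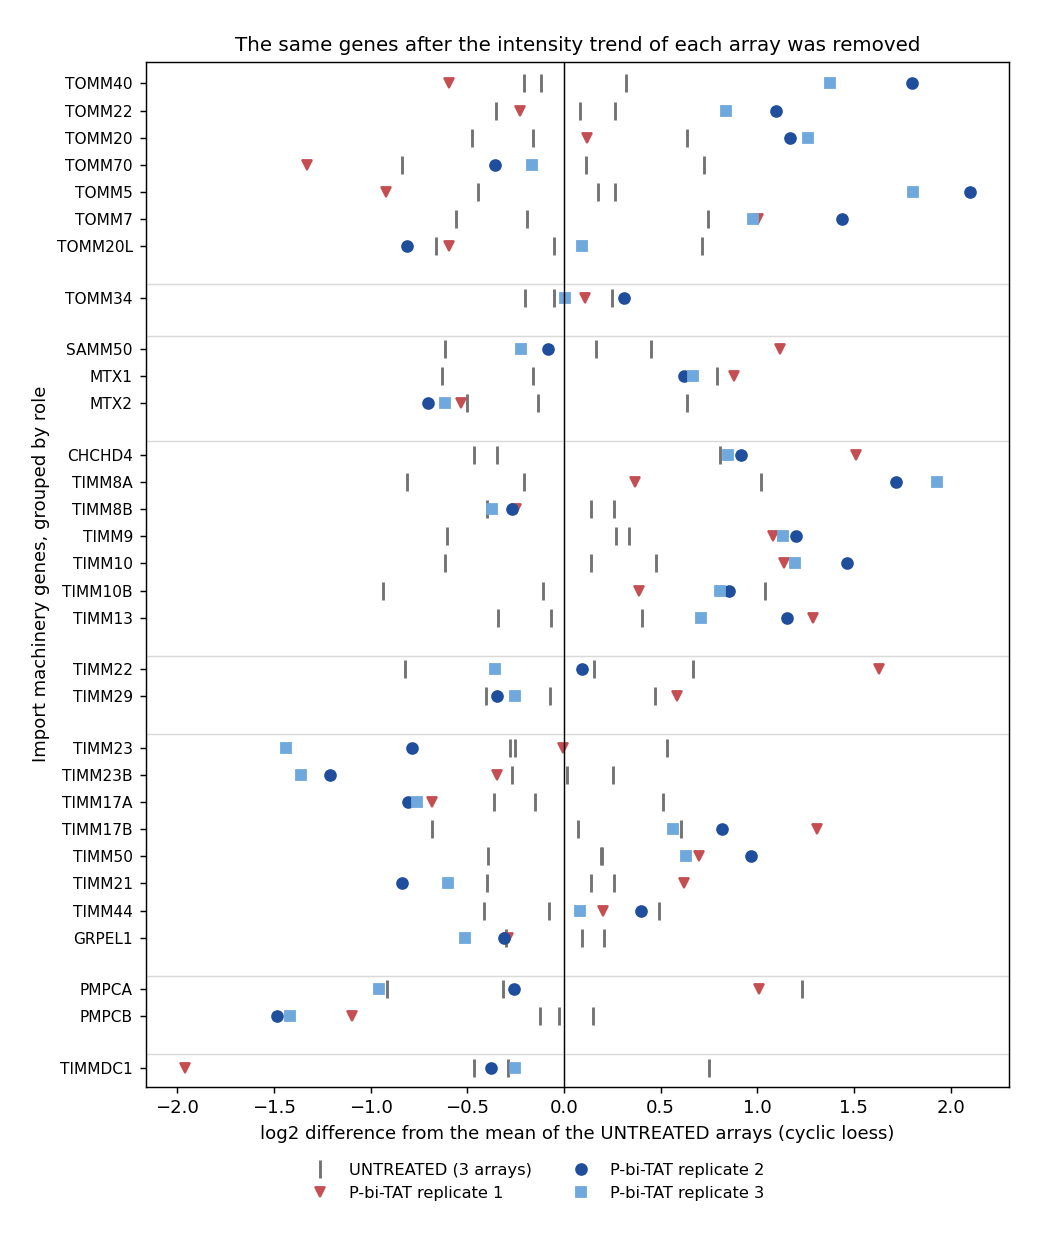
Log2 difference of each import gene from the UNTREATED mean after cyclic loess. All 3 P-bi-TAT arrays lie together above the UNTREATED arrays for TIMM9, TIMM10 and TIMM13 and below them for PMPCB and TIMM17A, while TOMM40 and TOMM5 remain split by replicate 1.

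Genes that work beside the import machinery were read from a list of 42, of which 40 were measured. With all arrays, limma called 0 of the 40 at an adjusted p under 0.05 and 0 at 1.5-fold with an unadjusted p under 0.05, in either direction. Without replicate 1, 10 of the 40 were higher and 0 lower at the latter limits, against the 9.26% and 5.31% of all genes given above. In replicates 2 and 3, 18 of the 40 lay above every UNTREATED array and 3 below, where 19.1% and 17.9% of all genes did. By role, the genes above were 9 of 10 motor and matrix chaperones, 3 of 12 peptidases, 4 of 15 insertion, folding and contact proteins, and 2 of 3 cytosolic chaperones. The 3 genes below were 1 peptidase (AFG3L2) and 2 insertion, folding and contact proteins (MTCH2 and IMMT). DNAJC15, a J-protein of the import motor, read 9.06, 9.13 and 9.33 in UNTREATED cells and 6.09, 11.21 and 11.05 after P-bi-TAT. HSPD1, the matrix chaperonin, read 12.19, 14.10 and 14.36, and then 11.54, 15.44 and 15.93. Both resembled TOMM40 in having replicate 1 below and the other 2 above the UNTREATED arrays. Among 74 mitochondrial ribosomal protein genes, whose products are themselves imported, 36 had replicates 2 and 3 above all UNTREATED arrays and 2 had them below, against the same 19.1% and 17.9%, and the median differences were -1.79, 0.88 and 0.63 in the 3 P-bi-TAT arrays. Among 45 SLC25 carrier genes, whose products are clients of TIM22, 8 lay above and 5 below, no larger a share than among all genes in either direction, with median differences of -1.35, 0.47 and 0.39. No difference between these lists and the import genes was tested.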

How the data were processed

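For 6 Clariom S arrays, log2 signals were deposited for each probe set. Transcriptome Analysis Console 4.0.1.36 and RMA are named by the submitters' processing notes but SST-RMA by the study's methods, and which was used is not settled. Values were used as deposited, and the array number limits precision. The 2903 control probe sets were left out. Of the other 21448, 17709 had 1 symbol in the platform annotation and 3739 had none, and the probe set with the highest mean was read per gene. P-bi-TAT was compared with UNTREATED by limma 3.58.1 (lmFit, eBayes; R 4.3.3), and p-values were adjusted after Benjamini and Hochberg over all 21448 gene probe sets, and the code was tested on simulated data. Exact permutation tests went through every split of the arrays in Python 3.11.15, and scipy 1.17.1 adjusted the p-values of the paralog pairs. Members, lists and motifs were chosen with earlier results of these data known. All members are named. Full statistics are given for members at an unadjusted p under 0.05, those whose groups did not overlap, and the 3 highest and 3 lowest by mean level, except TOMM20L, which was not above the negative controls in either group. Members chosen for their pattern without replicate 1 were added after their values were seen. Alternatives were each array left out, a replicate block, other scalings, filters, variance settings, array weights and one-way ANOVA. Replicate numbers were not shown to pair arrays across groups. The genome build of the array files is not given in the sources used here, and promoter coordinates are those of RefSeq.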

Additional observations from a re-analysis of the deposited data

How the results depend on the processing

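No import gene passed an adjusted p under 0.05 under any of the 18 alternatives, and the smallest adjusted p was 0.0805, for TOMM5 with array weights. Lower genes (unadjusted p under 0.05 and 1.5-fold) numbered 2 with all arrays (4.98% of all genes). They numbered 0 to 3 when single arrays were left out (3.21% to 5.31%), and 0 whichever UNTREATED array was left out (3.23% to 4.15%). They numbered 1 after quantile normalization, median centring or removal of the dimmest genes (2.98%, 1.24% and 2.30%). With the eBayes trend or one-way ANOVA they numbered 0 (6.55% and 5.99%). Higher genes numbered 0 with all arrays (0.192% of all genes). They numbered 0 to 12 when single arrays were left out (0.0396% to 9.26%), with 12 without P-bi-TAT replicate 1 (9.26%). They numbered 5 after quantile normalization (4.0% of all genes), 2 after median centring (2.15%), 6 with the intensity trend removed (4.47%) and 13 with array weights (10.9%). Without P-bi-TAT replicate 1 they numbered 10 with quantile normalization (5.95%) and 9 with the trend removed (6.36%). The member median ran from -0.66 without P-bi-TAT replicate 2 to 0.48 without replicate 1, and was 0.33 after quantile normalization, 0.25 after median centring, 0.27 with the trend removed and 0.39 with array weights. Quantile normalization moved the median of all genes from -0.43 to 0.00, and median centring to 0.08. TIMM29 turned to 0.14 with quantile normalization and 0.0166 with median centring. TIMM44 ran from -0.70 without P-bi-TAT replicate 2 to 0.48 without replicate 1, and turned to 0.14 with quantile normalization, 0.25 with median centring, 0.23 with the trend removed and 0.39 with array weights, and to 0.24 and 0.25 without replicate 1 after quantile normalization and trend removal. The causes were not tested. With the replicate number as a block, 2 genes were lower and 0 higher, against 4.33% and 0.17% of all genes. Deviations of same-numbered arrays correlated at 0.30, 0.04 and 0.33, and those of differently numbered arrays at -0.38 to 0.15. Pairing by number was neither shown nor excluded by these values.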
